A study of Paracentrotus lividus with 54 samples.

Results

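The RNA library of unfertilized eggs of the sea urchin Paracentrotus lividus was compared with the libraries of the 2-, 4- and 8-cell embryos that follow it, the 3 cleavage libraries being treated as 1 group of neighbouring stages. These are 4 of the 54 samples of the series, and they were taken by their stage labels. Of 33922 gene models, 14293 had a mean of at least 1 CPM (counts scaled to the library total) over the 4 libraries and were tested. In 9050 of these all 3 cleavage libraries lay on the same side of the egg, whether libraries were scaled by their total or by TMM, the trimmed mean of M-values, which equalizes the bulk of genes between libraries.

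The series follows normal development from egg to larva with 22 RNA-seq libraries, 1 for each of 17 stages and 5 adult tissues, and adds 28 ATAC-seq and 4 CUT&Tag samples. All 4 libraries compared come from wild-type whole organisms with no treatment. The eggs are labelled 0 hours, and the embryos 2, 3 and 4 hours for the 2-, 4- and 8-cell stage. The sample titles also call the cleavage stages blastula, which is a later stage, and the stage field was followed. The labels name no parents, culture or batch for any of these libraries, nor whether polyadenylated RNA was selected. The gene identifiers are not paired with names in the files, so egg markers could not be used to check the label, and at most 2 identifiers are named in each direction.

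A sea urchin egg carries a store of messenger RNAs made by the mother during oogenesis. Fertilization releases many of them for translation, often with lengthening of their poly(A) tails, and others are later broken down. Cleavage divides the egg's cytoplasm among smaller cells without growth, and transcription from the embryo's own genome adds to the maternal store during these divisions. Counts from whole embryos give the share of a transcript in the RNA sequenced, so that less of one RNA and more of all the others cannot be told apart, nor can fewer cells of a type and less RNA per cell.

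The egg library was the shallowest of the compared libraries and the most concentrated on few genes. Its total was 15732056 counts, against 21920016, 23443426 and 22932220 in the 2-, 4- and 8-cell libraries. Its 100 highest genes took 38.2% of its counts, against 28.4%, 29.2% and 24.8%, and 13222 gene models reached 1 CPM in it, against 14432, 14478 and 14600. The TMM factors were 0.6992 for the egg and 1.087, 1.099 and 1.197 for the cleavage libraries. Every count in these 4 libraries was even, for a reason the sources used here do not give, so intervals were computed on counts divided by 2, here called fragments. Intervals and floors cover counting error only. A floor of 3 fragments corresponds to 0.381 CPM in the egg.

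Under both scalings more genes lay at least 2-fold above the egg than below it, by a margin that varied with scaling and filter. In 2047 genes, 14.3% of those tested, all 3 cleavage libraries were at least 2-fold above the egg under both scalings, and in 252 genes, 1.76%, all 3 were at least 2-fold below. TMM alone gave 2047 above and 1324 below, and library size alone 4354 and 252. With at least 5 CPM in each of the 4 libraries the numbers were 836 and 146, and with no filter beyond 1 count 2455 and 527. The filter's mean covers 3 cleavage libraries and 1 egg library, so genes read only in cleavage pass it more easily. With 2 CPM in place of 0.5 CPM added to both values of a ratio the numbers were 1206 and 169. Without a fold minimum, 6464 genes (45.2%) had all 3 cleavage libraries above the egg and 2586 (18.1%) had all 3 below. At 4-fold the shares were 2.33% and 0.063%, the latter being 9 genes, and at 8-fold there were 26 genes above and 0 below. These are counts over genes with no test. Ranking 1 library against 3 allows no two-sided exact p below 0.5.

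The 2 scalings gave different pictures of how the cleavage libraries lay around the egg. The median log2 ratio of all tested genes to the egg, with 0.5 CPM added to both values, was 0.07, 0.08 and 0.11 in the 2-, 4- and 8-cell libraries under TMM. Under library size it was 0.65, 0.68 and 0.82, a shift of 0.58, 0.60 and 0.72. Under library size alone 9812 genes (68.6%) had all 3 cleavage libraries above the egg and 2586 had all 3 below, and under TMM alone 6464 and 5623 (39.3%). Asking for both scalings therefore let TMM set the number above and library size the number below. The remaining 5243 genes (36.7%) comprised 1501 (10.5%) that changed side with the scaling, 3383 (23.7%) with 1 side under exactly 1 scaling, and 359 (2.51%) in which the egg lay within the range of the cleavage libraries under both.

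**Figure D1:**
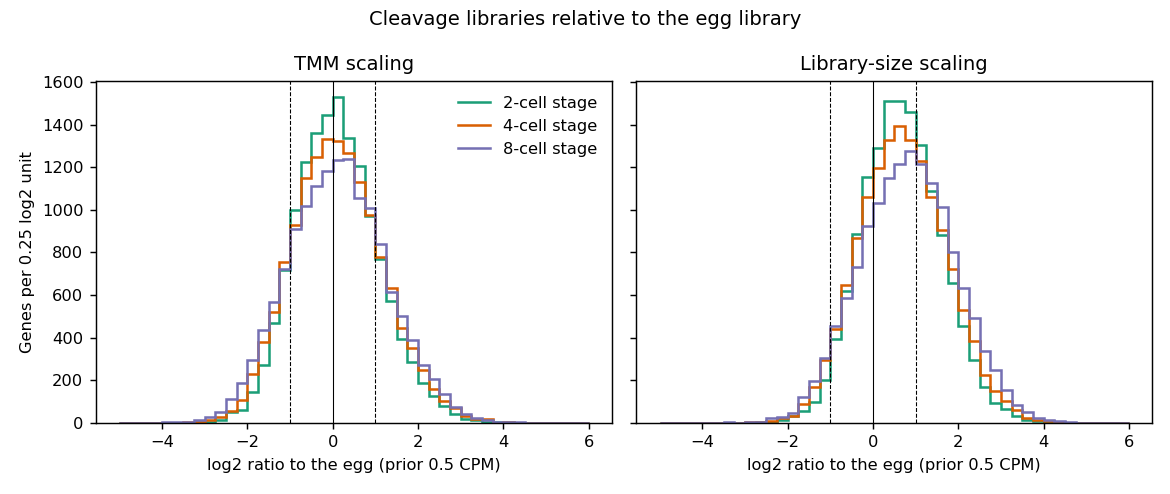
Number of genes per 0.25 log2 unit (vertical axis) against the log2 ratio of each cleavage library to the egg with a prior of 0.5 CPM (horizontal axis), for 14293 tested genes, under TMM scaling on the left and library-size scaling on the right; coloured outlines are the 2-, 4- and 8-cell libraries, and dashed lines mark a 2-fold ratio. The outlines centre near 0 under TMM (medians 0.07, 0.08 and 0.11) and to the right of it under library size (0.65, 0.68 and 0.82).

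The test asked which genes differed from the egg by more than the spread among the 3 cleavage libraries. Each gene's spread was drawn towards a trend over all genes, so it did not rest on that gene alone. With edgeR's quasi-likelihood test and Benjamini-Hochberg adjustment under TMM, 3657 genes (25.6%) were higher in cleavage and 3160 (22.1%) lower at an adjusted p under 0.05, in all 47.7% of those tested. With library size alone the same test gave 6874 higher and 1077 lower. All 3 cleavage libraries were above the egg under both scalings in 3656 of the 3657 higher genes, and below it in 2351 of the 3160 lower genes (74.4%). In 141 of the lower genes all 3 cleavage libraries were above the egg under library size. The test has 2 residual degrees of freedom and assumes that the egg library would vary as the cleavage libraries do, and with 1 egg library an effect of stage and one of that library or its culture cannot be told apart.

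For the 2-fold genes, the gap to the egg was set beside the spread among the cleavage libraries. The gap between the egg and the nearest cleavage library exceeded the range of the 3 cleavage libraries, on the TMM log2 scale, in 2009 of the 2047 genes above (98.1%) and in 250 of the 252 below (99.2%), against 56.6% of all tested genes. The same ratios had chosen these genes for a gap of at least 2-fold, so high shares were largely fixed by the choice. edgeR's quasi-likelihood test used the same 4 libraries that chose these genes. Its overlap with them was therefore largely fixed by the choice and is no separate support. Near the threshold above the egg, the least extreme log2 ratio of a gene was 1.0005 just inside and 0.9999 just outside. Below the egg these log2 ratios were -1.001 and -0.9986. Within 0.1 log2 unit of the threshold there were 264 genes inside and 293 outside above the egg, and 64 inside and 95 outside below it.

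Genes above the egg were mostly of low level in the egg and near the general level from the 2-cell stage on. Levels between genes are given as CPM scaled by TMM over all 22 libraries and divided by exon length in kb (CPM per kb). The median of the 2047 genes was 1.31 CPM per kb in the egg and 5.38, 5.84 and 6.49 in the 2-, 4- and 8-cell libraries. Over all tested genes the medians were 5.82, 6.95, 7.00 and 7.11. The 2047 genes took 1.26% of the egg's counts and 5.66%, 6.44% and 7.57% of the counts of the cleavage libraries. Their median log2 ratios to the egg were 1.56, 1.72 and 1.80 under TMM and 2.04, 2.21 and 2.42 under library size.

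For many of these genes the egg held few reads or none. The egg had 0 counts for 247 of the 2047 genes (12.1%), at most 3 fragments for 537 (26.2%) and less than 1 CPM for 760 (37.1%). Over all tested genes these shares were 1.76%, 5.09% and 10.9%. These 760 passed the filter on mean level through the cleavage libraries alone. With the egg set to the floor of 3 fragments wherever it was lower, the median log2 ratio of the cleavage mean to the egg was 1.78 under TMM and 2.47 under library size. These medians describe genes that the filter and the fold minimum had already chosen.

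PL28924 had the largest fitted increase among the 834 genes above the egg that also reached 20 CPM in 1 of the 4 libraries and passed the test. It lies on the minus strand of Scaffold_2974:4967574-4969492, with 3 exon records and 779 exon bases. It had 0.6356 CPM in the egg (95% exact Poisson interval 0.206 to 1.48), 21.72 in the 2-cell, 21.41 in the 4-cell and 36.54 in the 8-cell library. The 3 cleavage values lay far above the upper limit of the egg's interval, and the 8-cell value was the highest of them. Their mean was 26.56 ± 8.65 CPM (SD, n = 3 libraries of different stages), and the log2 change was 4.67 (SE 0.46, adjusted p = 3.14e-09, edgeR's quasi-likelihood test with Benjamini-Hochberg adjustment). In libraries outside the comparison it went on to 182.2 CPM in late gastrula and 106.1 in pluteus, with 11.9 in prism between them, and its highest level was 265 CPM in ovaries.

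PL06649, on the plus strand of Scaffold_2100:18612685-18662072 with 19 exon records and 2667 exon bases, had the next largest increase. It had 0.8899 CPM in the egg (0.358 to 1.83) and 14.96, 23.29 and 38.64 CPM in the 2-, 4- and 8-cell libraries, a higher value at each stage. The cleavage mean was 25.63 ± 12 CPM (SD, n = 3), and the log2 change was 4.13 (SE 0.48, adjusted p = 5.1e-08, edgeR). Its 8-cell value was the highest of all 22 libraries in CPM of the library total, while with TMM over 22 libraries ovaries were highest, at 15 CPM per kb against 9.9 at the 8-cell stage. It stood at 22.45 CPM in the 128-cell library, 3.265 in prism, 12.4 in pluteus and 34.71 in ovaries.

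The order of the 3 cleavage libraries among the genes above the egg is given as a description, since the same libraries chose the genes. On the TMM scale 713 of the 2047 (34.8%) were higher in the 4-cell than in the 2-cell library and higher again in the 8-cell library, against 21.2% of all tested genes. In 63 genes (3.08%, against 1.96% of all tested) the 8-cell library was at least 2-fold above the 2-cell library. Their median went from 0.209 CPM per kb in the egg to 1.73, 3.40 and 4.47 in the cleavage libraries, and was 3.29 in the 16-cell library and 3.39 in pluteus. None of the 63 was at least 2-fold higher at the 16-cell than at the 8-cell stage, against 0.637% of all tested genes, though the 8-cell library had taken part in choosing them.

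Ovaries, the tissue in which eggs are made, gave a view of these genes from a library that took no part in choosing them. Of the 2047 genes, 1690 (82.6%) reached 1 CPM in ovaries, against 12130 (84.9%) of all tested genes. Among the 537 with at most 3 fragments in the egg it was 316 (58.8%), and among the other 1510 it was 1374 (91%). The 537 were also of low level in cleavage, and these shares past 1 CPM were not matched for level. Of the 63 genes with a 2-fold ratio between 8- and 2-cell libraries, 28 (44.4%) were below 1 CPM in ovaries, against 329 of the 1984 others (16.6%). Of the 63, 40 also had at most 3 fragments in the egg, like the 537 genes of which 58.8% reached 1 CPM in ovaries. The part of low egg level in the 44.4% was not tested. In 401 of the 2047 genes (19.6%) ovaries were at least 2-fold above each of the other 4 adult tissues, against 17% of all tested genes.

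The 537 genes with few or no egg fragments passed the filter through the cleavage libraries alone and were of low level. In 111 of them (20.7%) every developmental library after the 8-cell stage reached 1 CPM, against 1055 of the other 1510 (69.9%). All 5 adult tissues reached 1 CPM in 94 (17.5%), against 743 (49.2%). Their median level was 1.58, 1.76 and 1.82 CPM per kb in the cleavage libraries, below that of all tested genes. These counts of libraries past 1 CPM were not matched for level, and are given as a description.

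Genes below the egg included some of the most abundant RNAs of the egg. The 252 genes took 17.1% of the egg's counts and 7.53%, 6.37% and 5.63% of the counts of the 2-, 4- and 8-cell libraries. Their median was 25.5 CPM per kb in the egg and 6.68, 6.24 and 5.20 in the cleavage libraries. Their median log2 ratios to the egg were -1.91, -2.05 and -2.35 under TMM and -1.31, -1.44 and -1.63 under library size. Of the 252, 30 (11.9%) were under 1 CPM in all 3 cleavage libraries and passed the filter through the egg alone. Without the 2-cell library 449 genes were at least 2-fold below the egg.

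The order of the cleavage libraries among the genes below the egg is likewise a description, since these libraries chose the genes. On the TMM scale 142 of the 252 (56.3%) were lower in the 4-cell than in the 2-cell library and lower again in the 8-cell library, against 22.6% of all tested genes. Of the 20 genes with the most counts in the egg, 14 had all 3 cleavage libraries below the egg under both scalings, 5 of them at least 2-fold, and none had all 3 above, against 18.1%, 1.76% and 45.2% of all tested genes. Genes picked for a high value in the egg library lean towards lying below it elsewhere, so these counts are a description. These 20 genes held 21.4% of the egg's counts and 15.1%, 16.1% and 12.6% of those of the cleavage libraries. The highest of them had 57780 CPM in the egg and 27530, 22790 and 21670 CPM in the 2-, 4- and 8-cell libraries.

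PL19975 had the largest fitted decrease among the 141 genes below the egg that met the conditions for naming. It is a model of 1 exon record and 7310 bases on the minus strand of Scaffold_3429:27577579-27584888. It had 1533 CPM in the egg (1510 to 1560), 320.7 in the 2-cell, 221 in the 4-cell and 153.8 in the 8-cell library. Each value was below the one before, and none of the intervals overlapped. The cleavage mean was 231.8 ± 84 CPM (SD, n = 3), and the log2 change was -3.4 (SE 0.26, adjusted p = 2.69e-11, edgeR). Outside the comparison it stood at 92.22 CPM in the 128-cell library, 5.374 in late gastrula, 3.581 in prism, 7.548 in pluteus and 244.7 in ovaries.

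PL11511, on the plus strand of Scaffold_3428:13683836-13698953 with 13 exon records and 1419 exon bases, had the next largest decrease and a different course. It had 841.1 CPM in the egg (821 to 862) and 197.2, 118.8 and 138.8 CPM in the 2-, 4- and 8-cell libraries. The 4-cell value was the lowest, and all 3 were far below the egg. The cleavage mean was 151.6 ± 40.7 CPM (SD, n = 3), and the log2 change was -3.15 (SE 0.22, adjusted p = 1.11e-11, edgeR). It was 193.9 CPM in the 16-cell library, 127.2 in prism with 24.14 in late gastrula and 35.04 in pluteus on either side of it, and 18.51 in ovaries. None of the 4 named models overlaps another gene model.

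**Figure D2:**
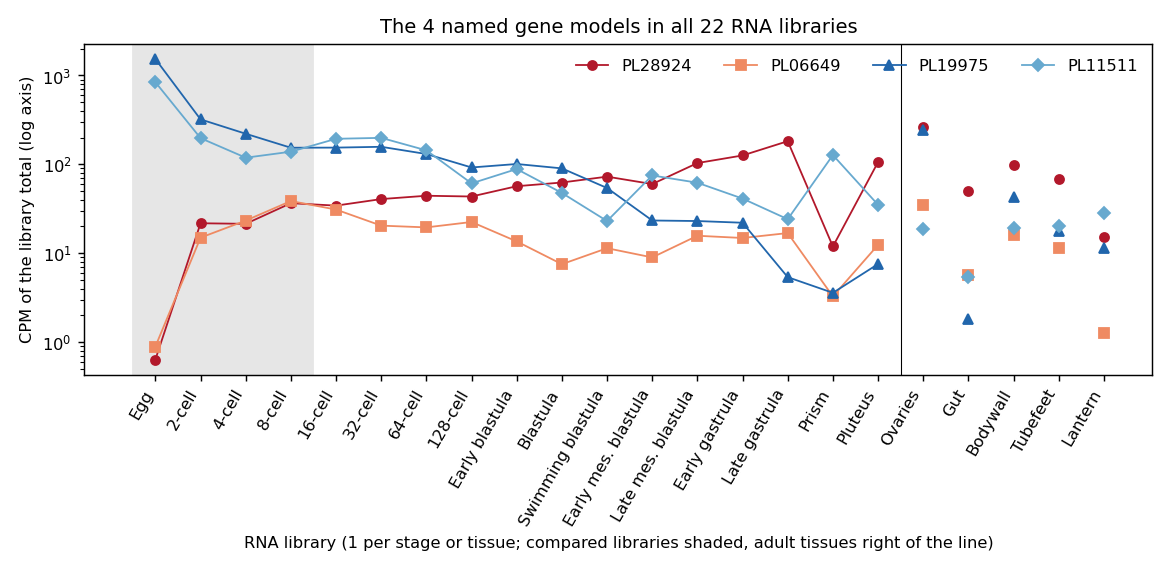
CPM of the library total on a log axis (vertical) in each of the 22 RNA libraries (horizontal) for PL28924 and PL06649, above the egg, and PL19975 and PL11511, below it; each point is 1 library, the compared libraries are shaded, and adult tissues stand right of the line. PL28924 and PL06649 go from 0.6356 and 0.8899 CPM in the egg to 21.72 and 14.96 at the 2-cell stage, while PL19975 and PL11511 go from 1533 and 841.1 to 320.7 and 197.2.

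In libraries that did not choose them, the genes below the egg had high medians in prism, the larval stage between gastrula and pluteus, and in Aristotle's lantern, the adult chewing apparatus. These libraries were singled out after the levels had been seen, and no test was made. The class median was 38.1 CPM per kb in prism and 28.2 in the lantern, which is 10.3 and 11.6 times the median of all tested genes there. In the egg, which chose the genes, it was 4.38 times, and in the 16- to 128-cell libraries between 0.646 and 0.997 times. It was 2.18 and 1.75 times in early and late mesenchyme blastula, 1.86 and 1.44 times in early and late gastrula, 1.65 times in pluteus, and between 1.26 and 1.64 times in the other 4 adult tissues. The genes above the egg ran at 0.735 to 0.866 times the general median from the 16-cell stage to late gastrula, at 0.683 times in prism and at 0.616 times in the lantern.

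**Figure D3:**
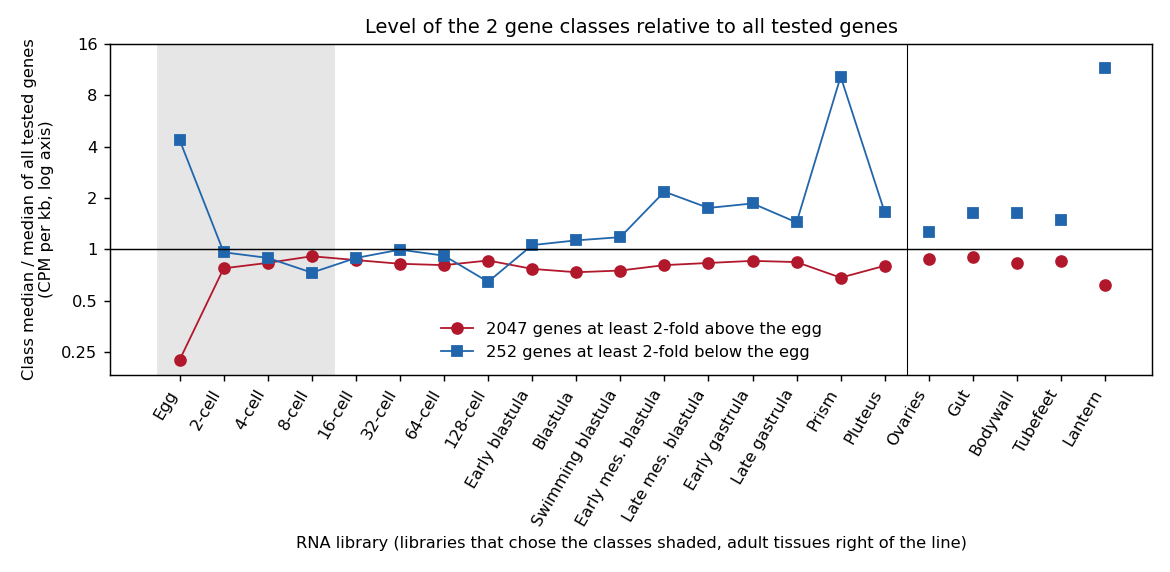
Median CPM per kb of the 2047 genes at least 2-fold above the egg (circles) and of the 252 genes at least 2-fold below it (squares), each divided by the median of all 14293 tested genes in the same library, on a log axis (vertical), for each of the 22 RNA libraries (horizontal); shaded libraries chose the classes and adult tissues stand right of the line. The lower genes reach 10.3 in prism and 11.6 in the lantern, while the higher genes stay between 0.616 and 0.912 outside the egg.

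Gene by gene, prism was at least 2-fold above both late gastrula and pluteus in 154 of the 252 genes below the egg (61.1%), against 16.4% of all tested genes and 158 of the 2047 above (7.72%). It was at least 2-fold below both in 12 of the 252 (4.76%), against 30.8% of all tested and 764 of the 2047 (37.3%). The lantern was at least 2-fold above each of the other 4 adult tissues in 87 of the 252 (34.5%), against 7.01% of all tested and 49 of the 2047 (2.39%). Prism and lantern were both high in 70 of the 252 (27.8%), against 5% of all tested genes, and neither was high in 81 (32.1%), against 81.6%. Seen from the other side, the genes below the egg made up 6.58% of the 2341 prism-high and 8.68% of the 1002 lantern-high genes.

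These shares used TMM factors over all 22 libraries and depended on the scaling. Under library size the prism share was 38 of 252 (15.1%), against 1.78% of all tested genes, and the lantern share 16 of 252 (6.35%), against 0.854%. The median log2 difference between prism and the mean of its neighbours was 1.82 for the genes below the egg, -0.86 for those above and -0.61 for all tested genes under TMM. Relative to all tested genes, the genes below the egg lay higher by 2.44 under TMM and by 2.17 under library size. For the lantern against the mean of the other adult tissues the medians were 1.64, -1.12 and -0.77, and the excess over all tested genes was 2.41 under TMM and 1.90 under library size. Among the 146 lower genes with at least 5 CPM in each compared library, prism was high in 120 (82.2%), against 19.1% of the 8438 genes at that level.

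**Figure D4:**
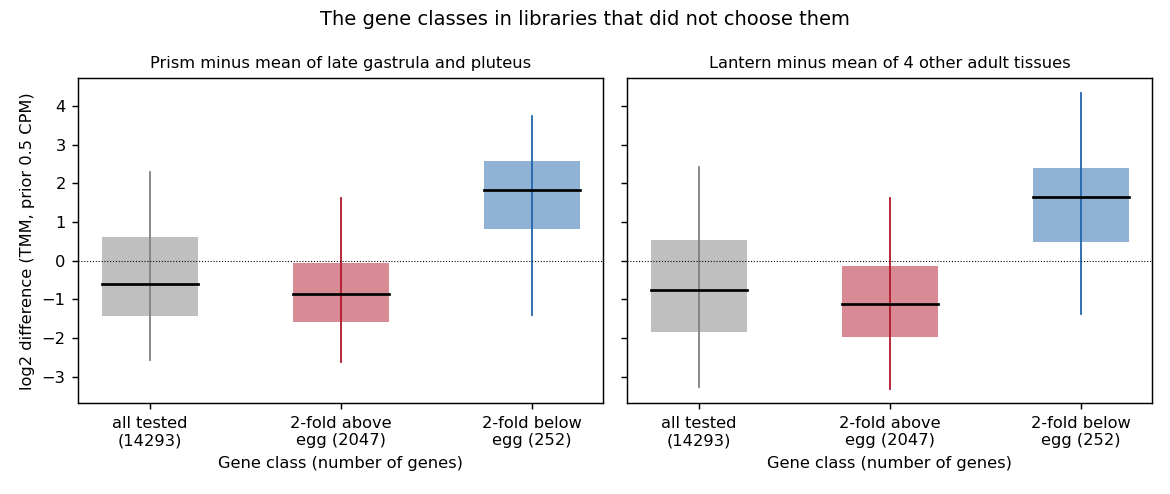
Log2 difference, TMM-scaled with a prior of 0.5 CPM (vertical axis), of prism from the mean of late gastrula and pluteus (left) and of the lantern from the mean of the other 4 adult tissues (right), for all tested genes, genes at least 2-fold above and genes at least 2-fold below the egg (horizontal axis); boxes span the middle 50% of genes, black lines are medians and vertical lines run from the 5th to the 95th percentile. The medians of the lower genes are 1.82 and 1.64, above those of all tested genes at -0.61 and -0.77.

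Egg, prism and lantern also shared a property of the libraries as a whole, which ovaries, tubefeet and gut had as well. The share of counts on the 100 highest genes was 49.4% in prism and 61.6% in the lantern, against 24.6% to 33.4% in the developmental libraries other than prism and the egg, and the egg's 38.2% was the highest of those before prism. The TMM factors over 22 libraries were 0.8941 for the egg, 0.4102 for prism and 0.2934 for the lantern, and the egg and prism had the lowest factors of the 17 developmental libraries. Among adult tissues ovaries and tubefeet had 44.1% and 46.6% of their counts on 100 genes and factors of 0.867 and 0.7669. The lower genes stood at 1.26 and 1.48 times the general median in these 2 tissues. Gut had a factor of 0.4678 and 56.2% of its counts on 100 genes, and the lower genes stood there at 1.64 times the general median. The tested genes held 64.7% of the counts in gut, against 93.4% in prism and 82.7% in the lantern. The part of library concentration in the class levels above was not tested.

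The 154 lower genes that were high in prism differed from the other 98 in structure and course, a split made after their values were seen. Their median exon length was 3139 bases, against 1737.5, and 7 (4.55%) had a single exon record, against 13 (13.3%). Their median level in the egg was 68.4 CPM per kb, against 5.63. In the 2-, 4- and 8-cell libraries it was 19.7, 17 and 13, against 0.973, 0.92 and 0.872. On the TMM scale 66.2% of the 154 went down at each step from the 2- to the 8-cell library, against 40.8% of the others. These shares were not matched for level, and the order of libraries is less sure at low counts. The median log2 ratio of the cleavage mean to the egg was close in both, at -2.14 and -2.09.

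Genes above the egg had shorter exon lengths in the median than genes below it. The median exon length was 1734 bases for the 2047 genes above, 2583.5 for the 252 below and 1995 for all tested genes. Among deciles of the tested genes ordered by exon length, genes at least 2-fold above the egg made up between 15.4% and 17.8% in the 6 shortest deciles and 7.34% in the longest. Genes at least 2-fold below made up 1.33% in the shortest decile, 2.87% in the ninth and 1.47% in the longest. The median of exon records was 8 for genes above, 6 for genes below and 8 for all, and the span on the scaffold had medians of 12911, 10911.5 and 13408 bases. A model on the other strand overlapped 8.06% of the genes above, 11.9% of those below and 9.39% of all tested genes. The sources used here do not say which strand the counts follow.

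**Figure D5:**
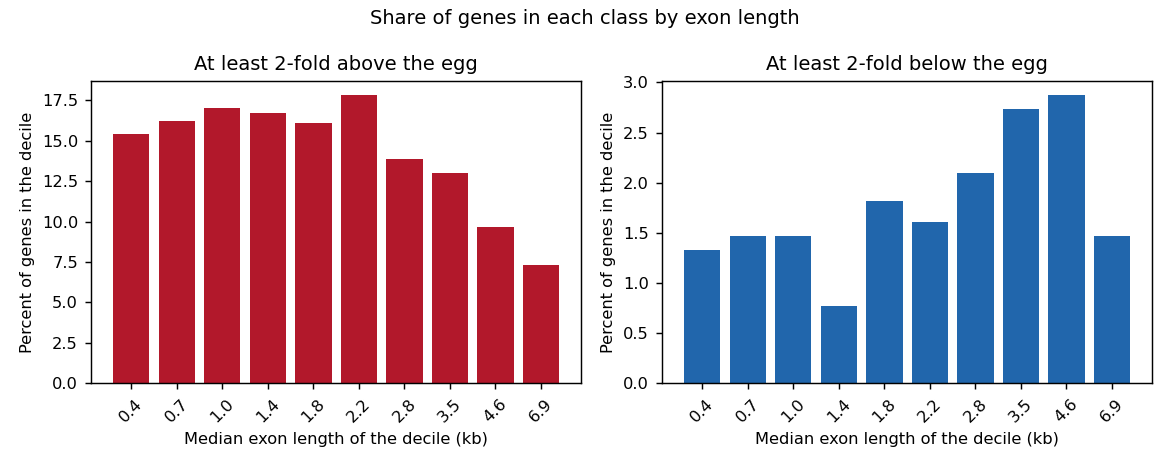
Percent of genes (vertical axis, starting at 0) at least 2-fold above the egg (left) and at least 2-fold below it (right) in each decile of the 14293 tested genes ordered by exon length (horizontal axis, median length of the decile in kb). The share above the egg is 15.4% in the shortest and 7.34% in the longest decile, and the share below is highest at 2.87% in the ninth.

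The genes were also ordered by their level in ovaries. In the decile of genes with the highest ovary level (median 103 CPM per kb) the median of the mean TMM log2 ratio to the egg was -0.22, and 3.64% of genes were at least 2-fold below the egg. In the other deciles the median ran from 0.01 to 0.19, and the share at least 2-fold below was 2.73% in the lowest decile and between 1.12% and 1.89% in the rest. Genes at least 2-fold above the egg made up 12.2% in the highest decile and between 12.5% and 16.7% in the others.

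Open chromatin at gene starts was read from the ATAC-seq peak lists, of which the earliest is from the 16-cell stage. A peak summit lay within 1 kb of the start of 8.95% of all tested genes in the 16-cell list, of 7.77% of genes above the egg and of 6.75% of genes below it. In the blastula list the shares were 49.2%, 46.1% and 46%, in gastrula 53.8%, 49.4% and 55.2%, in prism 48.8%, 44.1% and 50.4%, and in pluteus 36.6%, 31.8% and 34.9%. Genes above the egg had a lower share than all tested genes in every list, while the shares of genes below it lay on either side. The lists read the same genes, and no test was made. PL28924, PL06649 and PL11511 had a start peak in every list but the 16-cell one, and PL19975 in the gastrula and prism lists only.

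Both groups of genes were spread over the genome. On the 19 scaffolds with at least 200 tested genes, between 11.6% and 17.3% of genes were at least 2-fold above the egg and between 0.629% and 2.6% at least 2-fold below. A tested neighbour of the same class was found for 697 of the 2047 genes above (34%), against 25.8% of all tested genes having such a neighbour, and for 16 of the 252 below (6.35%), against 3.39%. The longest run of neighbouring genes was 5 above the egg and 2 below.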

How the data were processed

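Whole-number read counts per gene model were deposited by the authors for 22 RNA libraries. RNA was isolated with Trizol for strand-specific libraries read from both ends, per the labels' protocols. The aligner was STAR 2.5.2b and the counter featureCounts 1.6.1, per the submitters' processing notes. The counter was run with its strand option at 1 and without pair counting, per the file headers. Positions are those of the deposited table, whose genome build the sources used here do not name. Each deposited ATAC peak list, named for all samples of a stage, gives the authors' score and −log10 p-value, per the labels made with Bowtie2 2.4.1 and Genrich. Neither value was used here, only summit positions. The early and late blastula lists are identical, and 1 was read. CUT&Tag samples were not analysed here.

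Genes with a mean of at least 1 CPM over the 4 libraries were fitted in edgeR 4.0.16 (R 4.3.3) with TMM factors, cleavage against egg, with no covariate and an adjusted p threshold of 0.05. The fit took the counts as deposited, not divided by 2, and ratios to the egg used a prior of 0.5 CPM. DESeq2 1.42.0 was run as an alternative. Named identifiers were the 2 with the largest and the 2 with the smallest fitted change among genes past the test, at least 2-fold on 1 side in all 3 cleavage libraries under both scalings, with at least 20 CPM in 1 library. The compared libraries, gene classes and readouts were chosen with earlier results of these data known. P-values rest on the spread between 3 libraries of different stages, drawn towards a trend over genes, and not on any spread between eggs.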

Additional observations from a re-analysis of the deposited data

How the results depend on the processing

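The counts depended on the scaling. Library size alone gave 6874 genes higher and 1077 lower in edgeR's quasi-likelihood test, 4354 genes at least 2-fold above the egg and 9812 above it without a fold minimum. TMM alone gave 1324 genes at least 2-fold below and 5623 below. With at least 5 CPM in each compared library, 2212 genes were called higher, 836 were at least 2-fold above, 3780 above and 146 at least 2-fold below. With no filter beyond 1 count, 527 genes were at least 2-fold below and 4050 below. A prior of 2 CPM gave 1206 genes at least 2-fold above. A minimum of 4-fold left 2.33% of tested genes above and 0.063% below, and 1.5-fold 24.9% and 5.70%. Leaving out each cleavage library in turn gave 3016 to 3787 higher and 2598 to 3406 lower calls, 2125 to 2442 genes at least 2-fold above, 300 to 449 at least 2-fold below, 6729 to 6866 above and 2807 to 2956 below. DESeq2 gave 3234 higher and 3121 lower.

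The prism share of the genes below the egg was 15.1% under library size, 69.8% with late gastrula and 69% with pluteus as the only neighbour, and 82.2% with at least 5 CPM in each compared library. The lantern share was 6.35% under library size. These settings, and leaving out overlapping gene models, were chosen after seeing the data. The fitted changes of the 4 named genes kept their direction in 54 of 54 refits. These genes were named for the most extreme changes, and every refit used the same egg library. The agreement was therefore largely fixed by the choice and is no independent support. No paired analysis was possible because each stage has 1 library. The single egg library could not be left out, and genes near its floor of 0.381 CPM have ratios limited by depth.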
